A study of Mus musculus with 4 samples.

Results

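A set of 9 genes of vitamin A handling in enterocytes, the absorptive cells of the small intestine, was followed in mouse small intestinal (SI) organoids that overexpressed miR-181a-5p. Rdh7 had been picked for its consistent fall between the same libraries, that is, it was selected on its level in these 4 libraries, and its values are given as a description without a test. The other 8 genes (Rdh10, Dhrs3, Rbp2, Bco1, Lrat, Aldh1a1, Isx and Crabp2) were taken because their products take up, bind, oxidise or esterify vitamin A. They too were chosen with earlier results of these data known. All 9 were among the 55487 genes listed in the expression tables, and 7 of them had enough counts to enter the fit.

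SI organoids are epithelial cultures grown from isolated crypts, and hold stem cells together with their differentiated progeny. The mouse organoids received a lentivirus that encoded a miRNA mimic control (replicates 1 and 2) or the miR-181a-5p mimic (replicates 3 and 4), and both groups were kept in puromycin at 2 μg/ml, so the controls carried a vector and had been selected as well. RNA of 4 libraries, 2 per group, was sequenced. Strain, sex and age of the mice are not given in the sources used here, nor whether libraries within a group stem from separate infections, so the p-values measure only the spread between these libraries, which may be technical. Mature miR-181a-5p itself was not measured in these libraries, and whole organoids rather than sorted enterocytes were sequenced.

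Vitamin A enters the enterocyte as retinol, released from retinyl esters in the gut, or as β-carotene, which Bco1 cleaves to retinaldehyde. Retinol and retinaldehyde are held in the cytosol by Rbp2, retinaldehyde is reduced back to retinol by enzymes such as Dhrs3, and Lrat esterifies retinol for export in chylomicrons. A smaller flow is oxidised: dehydrogenases such as Rdh10 make retinaldehyde, Aldh1a enzymes turn it into retinoic acid, Crabp2 carries retinoic acid to its nuclear receptors, and Cyp26 enzymes break it down. Isx is an intestinal transcription factor that is switched on by retinoic acid and represses Bco1 and the carotenoid receptor gene Scarb1. Rdh7 belongs to the same short-chain dehydrogenase family as Rdh10, and its enzyme oxidises cis-retinols and hydroxysteroids.

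The mimicked miRNA is shown because its seed (bases 2 to 8, in capitals) guides its pairing with mRNAs. The RefSeq sequence (GRCm38.p6) is encoded by Mir181a-1 on chromosome 1 and by Mir181a-2 on chromosome 2.
mmu-miR-181a-5p: aACAUUCAacgcugucggugagu
No match to this seed was found in the longest annotated 3' UTR of any of the 9 genes, which were between 204 bases (Rbp2) and 4394 bases (Lrat) long. The letters searched were TGAATGT, TGAATGTA and GAATGTA on the mRNA strand, of which TGAATGTA holds both others. Among 12847 tested genes with a 3' UTR of at least 50 bases, 23.4% held at least 1 of the 3. A missing match says only that these letters were not in the annotated UTR.

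Rdh7 (ENSMUSG00000040134) lies on chromosome 10 of GRCm38 from 127884028 to 127888817 on the minus strand. Its level was 65.9 and 66.5 normalized CPM (counts scaled to the sequencing depth after TMM correction) in control organoids against 15.5 and 14.8 in mimic organoids. The groups were far apart, and the libraries within each group were close together, the pattern for which Rdh7 had been chosen. This was a 4.37-fold lower level with the mimic, or a log2 fold change of -2.13 with a standard error (SE) of 0.11 (n = 2 per group). Those levels rested on 2526 and 2062 expected counts in the controls and on 484 and 528 with the mimic. Leaving out each library in turn gave log2 fold changes between -2.15 and -2.10.

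**Figure D1:**
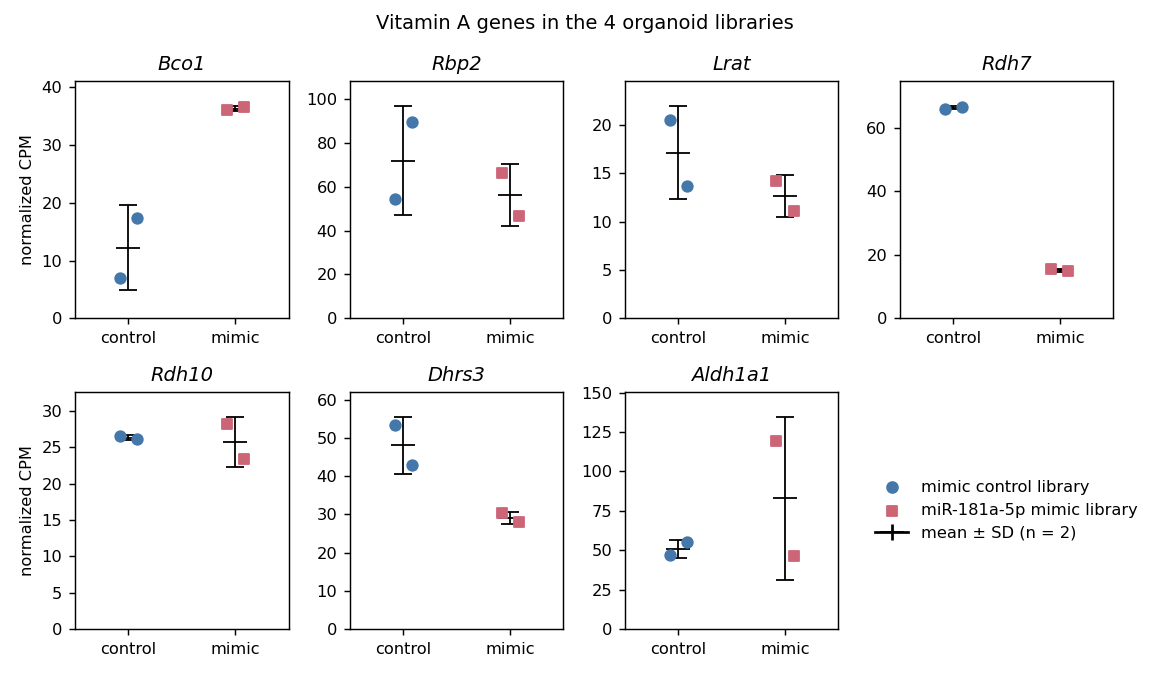
Normalized CPM of the 7 vitamin A genes with enough counts to test in the 2 mimic control libraries (circles) and the 2 miR-181a-5p mimic libraries (squares), each panel with its own axis from 0, and bars for the mean ± SD. Rdh7 and Dhrs3 are lower in both mimic libraries than in both controls, Bco1 is higher in both, and the groups of Rbp2, Lrat, Rdh10 and Aldh1a1 overlap.

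Rdh7 stands in a row of related dehydrogenase genes, some of which share sequence with it. Of its 1579 windows of 100 bases, the length of the reads, 65 (4.12%) also occurred in another gene, each time in the pseudogene Rdh18-ps. Counts of the 7 related genes Rdh7, Rdh16, Rdh9, Rdh1, Rdh19, Rdh16f2 and Rdh18-ps were therefore also summed. The sum was 69.9 and 70.2 normalized CPM in the controls against 17.4 and 17.4 with the mimic. The log2 fold change of the sum was -2.01 with an SE of 0.10, and Rdh7 made up between 85.3% and 94.7% of it in every library.

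Among the genes that start within 100 kb of Rdh7, Rdh16f2 was the nearest on its left, with its start 22.3 kb away. Rdh16f2, a dehydrogenase gene related to Rdh16, was low, at 1.72 and 1.26 normalized CPM in control organoids against 0.32 and 0.31 in mimic organoids. Both mimic libraries lay below both controls, and the gene fell by 2.25 on the log2 scale (SE 0.39, adjusted p = 0.0311 in the edgeR quasi-likelihood test). None of its 100-base windows occurred in another gene, although 26.0% of its 30-base windows did. The call was lost without control replicate 1 (adjusted p = 0.0622), without mimic replicate 3 (0.0717) and without mimic replicate 4 (0.0586), within a range of 2.23e-05 to 0.314 over all alternatives.

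The other tested neighbours did not pass the threshold. Sdr9c7, another short-chain dehydrogenase gene, starts 9.70 kb to the right and had a log2 fold change of -0.40 with an SE of 0.41 (adjusted p = 0.587). Rdh16, which starts 87.7 kb to the left, had a log2 fold change of 0.71 with an SE of 0.50 (adjusted p = 0.409), at 8.09 to 15.9 counts per library. Rdh18-ps, Rdh19, Gm15905, Gm15900, Gm23996 and Gm47949 had too few counts to test.

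**Figure D2:**
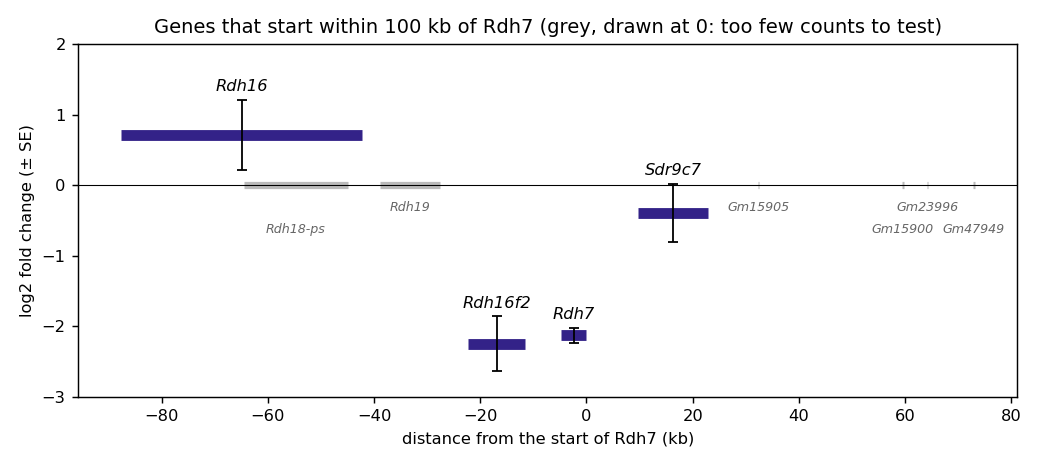
Genes that start within 100 kb of the start of Rdh7, drawn as bars over their extent by distance from that start in kb (horizontal axis), with the log2 fold change of the mimic over the control and its SE (vertical axis). Rdh7 at -2.13 and Rdh16f2 at -2.25 lie near each other below 0, Rdh16 and Sdr9c7 lie nearer to 0, and genes in grey, drawn at 0, had too few counts to test.

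Bco1 (ENSMUSG00000031845, chromosome 8, 117095854 to 117133720, plus strand) encodes the enzyme that splits β-carotene. Its level was 7.02 and 17.4 normalized CPM in control organoids against 36.1 and 36.6 in mimic organoids. Both mimic libraries lay above both controls, while the controls themselves differed more than 2-fold. This gave a log2 fold change of 1.58 with an SE of 0.35 and a 95% interval from 0.77 to 2.39. It did not pass the threshold in the edgeR quasi-likelihood test (adjusted p = 0.0544). The value depended on which control was kept, with a log2 fold change of 1.05 without control replicate 1 and of 2.38 without control replicate 2. With any 1 library left out the adjusted p was at most 0.0242, and edgeR's exact and likelihood-ratio tests gave 0.000714 and 0.000602, while DESeq2 gave 0.0879 and the range over all alternatives was 5.92e-05 to 0.322.

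Isx (ENSMUSG00000031621, chromosome 8, 74873173 to 74893506), the repressor of Bco1 and Scarb1, was close to absent from the counts. It had 0 counts in both controls and in mimic replicate 3, and 1 count in mimic replicate 4. A count of 0 allows up to 3 counts, or 0.0787 to 0.0964 CPM in these libraries, and no fold change was computed between groups at or below that limit. Scarb1, which encodes the receptor that takes up carotenoids at the brush border, was at 92.7 and 132 normalized CPM in control organoids against 146 and 141 in mimic organoids. Both mimic libraries lay above both controls, and the log2 fold change of 0.35 with an SE of 0.16 did not pass the test (adjusted p = 0.217).

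Rbp2 (ENSMUSG00000032454, chromosome 9, 98486115 to 98509781, plus strand), the retinol-binding protein of the enterocyte, was the most abundant of the 9 genes per length. It was at 54.5 and 89.5 normalized CPM in control organoids against 66.5 and 46.5 in mimic organoids. The groups overlapped, and control replicate 2 was the highest library, as it was for the summed level of 15 enterocyte markers. The fitted log2 fold change was -0.35 with an SE of 0.25 and a 95% interval from -0.92 to 0.22 (adjusted p = 0.412). Without control replicate 2 it was 0.056.

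Lrat (ENSMUSG00000028003, chromosome 3, 82892579 to 82903973, minus strand), the enzyme that esterifies retinol, was the lowest of the tested members per length. Its normalized CPM was 20.5 and 13.7 in control organoids against 14.2 and 11.1 in mimic organoids. Control replicate 1 was the highest library, and control replicate 2 lay within the range of the mimic libraries. The log2 fold change was -0.44 with an SE of 0.22 and a 95% interval from -0.95 to 0.07 (adjusted p = 0.254). Without control replicate 2 it passed, at -0.69 (adjusted p = 0.0359), and without control replicate 1 it was -0.12. Over all alternatives the adjusted p ran from 0.0359 to 0.787.

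Dhrs3 (ENSMUSG00000066026, chromosome 4, 144892827 to 144928209, plus strand), which reduces retinaldehyde back to retinol and is known to be induced by retinoic acid, was the only one of the other members that passed the test. It was at 53.3 and 42.9 normalized CPM in control organoids against 30.2 and 28.0 in mimic organoids, so both mimic libraries lay below both controls. The gene fell by 0.72 on the log2 scale with an SE of 0.13 (adjusted p = 0.0353), or 1.65-fold, short of the 2-fold change that the study also required. The call was lost without mimic replicate 4 (adjusted p = 0.0605), without a filter on low counts (0.0923) and in 3 limma fits on TPM, a measure per transcript length (0.115 to 0.314), and the lowest adjusted p of any alternative was 0.000178. Its log2 fold change stayed between -0.87 and -0.56 with any 1 library left out.

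Rdh10 (ENSMUSG00000025921, chromosome 1, 16105774 to 16133734, plus strand), the dehydrogenase that makes retinaldehyde from retinol, was at 26.6 and 26.1 normalized CPM in control organoids against 28.2 and 23.3 in mimic organoids. The controls lay between the mimic libraries. The log2 fold change was -0.03 with an SE of 0.13, and its 95% interval ran from -0.34 to 0.27 (adjusted p = 0.900).

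Aldh1a1 (ENSMUSG00000053279, chromosome 19, 20492715 to 20643465, plus strand), which oxidises retinaldehyde to retinoic acid, depended on a single library. It was at 46.8 and 55.0 normalized CPM in the controls, at 119 in mimic replicate 3 and at 46.4 in mimic replicate 4. Mimic replicate 3 stood far above the other libraries, and mimic replicate 4 was the lowest of the 4. On the log2 scale the fold change was 0.70 with an SE of 0.36 (adjusted p = 0.274). It was -0.13 without mimic replicate 3, and without mimic replicate 4 it was 1.23 and passed (adjusted p = 0.000849, with a range over all alternatives up to 0.798).

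Aldh1a1 shares 12.4% of its 30-base windows with its close relative Aldh1a7, but only 1 of its 2259 windows of 100 bases. Aldh1a7 was at 49.0 and 51.6 normalized CPM in control organoids against 30.6 and 39.8 in mimic organoids. Both mimic libraries lay below both controls, with a log2 fold change of -0.51 and an SE of 0.14 that did not pass (adjusted p = 0.0863). The sum of both genes was 95.8 and 107 in control organoids against 150 and 86.3 in mimic organoids, with a log2 fold change of 0.22 (SE 0.23, adjusted p = 0.579).

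Crabp2 (ENSMUSG00000004885, chromosome 3, 87948666 to 87953376), the carrier of retinoic acid to its receptors, was counted 1 and 0 times in control organoids and 3 and 0 times in mimic organoids. These were at or below the limit that a count of 0 allows, and Crabp2 and Isx were not tested.

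Of the 8 genes other than Rdh7, 6 were tested. At an adjusted p under 0.05 the mimic lowered 1 and raised 0 of them, whereas of all 17155 tested genes 2.29% were lower, 1.28% higher and 3.57% changed in either direction. At an unadjusted p under 0.05, 1 was lower and 1, Bco1, was higher, beside 2222 lower and 2028 higher of all 17155 tested genes. DESeq2 called 1 lower and 0 higher, beside 652 and 646 over all genes. With the fold change of at least 2 added, 1.47% of all genes were lower and 0.589% higher, and none of the 6 was among them. The median log2 fold change of the 6 was -0.19, beside -0.01 over all tested genes. Groups that did not overlap were common in this comparison: both mimic libraries lay below both controls in 29.5% of all genes and above them in 28.9%, a pattern that Dhrs3 and Bco1 shared with those genes. In whole-organoid RNA, fewer cells of a type and less RNA per cell cannot be told apart.

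**Figure D3:**
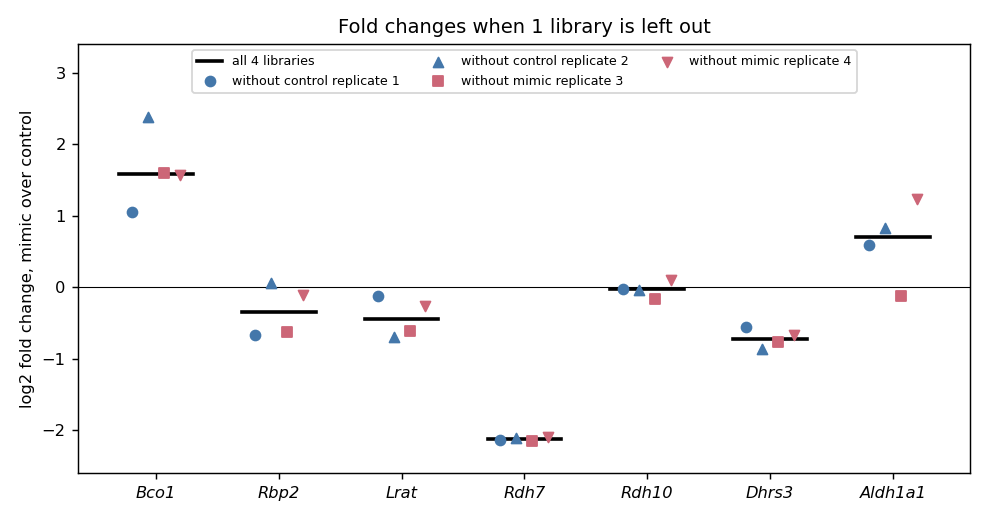
Log2 fold changes of the 7 vitamin A genes with enough counts, mimic over control, from all 4 libraries (black line) and with each library left out in turn (points). Rdh7, chosen for its consistent fall between these libraries, stays between -2.15 and -2.10. Dhrs3 stays between -0.87 and -0.56, while Aldh1a1 runs from -0.13 to 1.23, Rbp2 from -0.67 to 0.056 and Bco1 from 1.05 to 2.38.

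Compared per length, the order of the members differed between the groups. In the controls Rbp2 led at 148 ± 52.4 TPM (mean ± SD, n = 2), followed by Rdh7 at 49.7 ± 0.81 TPM, Dhrs3 at 45.3 ± 5.95 TPM and Aldh1a1 at 30.8 ± 3.83 TPM. Rdh10 followed at 9.50 ± 0.09 TPM, Bco1 at 6.60 ± 4.11 TPM and Lrat at 3.86 ± 1.05 TPM. The ranges of Rdh7 and Dhrs3 overlapped, as did those of Bco1 with both Rdh10 and Lrat.

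With the mimic Rbp2 was again the highest, at 120 ± 22.1 TPM, and Aldh1a1 came next at 51.6 ± 29.4 TPM. Dhrs3 was at 27.7 ± 1.23 TPM, Bco1 at 20.3 ± 1.74 TPM, Rdh7 at 11.9 ± 0.40 TPM, Rdh10 at 9.38 ± 0.77 TPM and Lrat at 2.97 ± 0.33 TPM. No neighbours in this order had overlapping ranges of libraries. Rdh7 thus stood in the second place in the controls and in the fifth with the mimic, below Bco1, which it had exceeded in the controls.

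A further 74 genes of vitamin A metabolism were examined, of which 53 were tested and 8 had 0 counts in all libraries. In all 4 were lower and 2 higher at an adjusted p under 0.05, or 7.55% and 3.77% of those tested, beside 2.29% and 1.28% of all tested genes. At an unadjusted p under 0.05, 14 were lower and 7 higher, beside 2222 and 2028 of all 17155 tested genes. These lists were drawn up with earlier results of these data known, so their shares are only a description. The median log2 fold change of the 53 was -0.11. Both mimic libraries lay below both controls in 19 of the 53 (35.8%) and above them in 13 (24.5%), near the shares over all genes.

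Of 22 genes listed as retinol and retinal oxidoreductases, 18 were tested. At an adjusted p under 0.05, 2 (11.1%) were lower and 0 higher, beside 2.29% and 1.28% of all tested genes. Without adjustment 6 were lower and 3 higher at p under 0.05, beside 2222 and 2028 of all 17155 tested genes. DESeq2 called 1 lower and 2 higher, beside 652 and 646 over all genes. The 2 that passed the adjusted threshold were Rdh16f2 and Adh1, an alcohol dehydrogenase that oxidises ethanol and retinol. Adh1 was at 203 and 250 normalized CPM in control organoids against 89.7 and 64.2 in mimic organoids. Both mimic libraries were well below both controls, and the gene fell by 1.56 on the log2 scale (SE 0.17, adjusted p = 0.0087), a call that held with any 1 library left out. Dhrs4 and Cbr1 had the highest mean TPM of the list over all 4 libraries, although Adh1 led it in the controls at 207 ± 32.6 TPM. They had log2 fold changes of -0.03 (SE 0.11, adjusted p = 0.892) and -0.01 (SE 0.13, adjusted p = 0.972).

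Of 11 genes that make or split retinyl and other lipid esters, 10 were tested, 2 were lower and 0 higher (4 lower and 0 higher at an unadjusted p under 0.05, 3 lower and 0 higher by DESeq2). Pnliprp2, a lipase related to pancreatic lipase, was at 80.4 and 49.9 normalized CPM in control organoids against 15.1 and 18.2 in mimic organoids. The groups did not overlap, and the gene fell by 1.97 (SE 0.22, adjusted p = 0.0088), with any 1 library left out as well. Ces1g, a carboxylesterase gene, was at 4.28 and 1.81 in control organoids against 0.67 and 0.48 in mimic organoids, and fell by 2.44 (SE 0.50, adjusted p = 0.0469). Its call was lost under 6 of 15 alternatives, with an adjusted p of up to 0.338. Among them were the fits without control replicate 1 (-1.67) and without mimic replicate 4. The related Ces1f had a log2 fold change of -1.16 (SE 0.29) that did not pass (adjusted p = 0.0729), and Dgat1, which esterifies retinol and diacylglycerol, had one of 0.14 (SE 0.14, adjusted p = 0.550).

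Of 12 uptake and carrier genes, 10 were tested, 0 were lower and 1 was higher (3 lower and 1 higher at an unadjusted p under 0.05, 1 lower and 1 higher by DESeq2). Rbp7, a cellular retinol-binding protein, was low in the controls, at 0.18 and 0.39 normalized CPM, and reached 4.09 and 1.71 with the mimic. The groups did not overlap, and the gene rose by 3.36 on the log2 scale (SE 0.59, adjusted p = 0.0328). The call was lost under 5 of 16 alternatives, the fit without control replicate 1 among them. The log2 fold change was 2.63 without mimic replicate 3 and 3.95 without control replicate 2. Its adjusted p over all alternatives ran from 1.32e-06 to 0.314. Ttr, which carries retinol-binding protein and thyroxine in plasma, was at 62.4 and 42.5 in control organoids against 18.6 and 30.2 in mimic organoids, with a log2 fold change of -1.10 (SE 0.25) that did not pass (adjusted p = 0.0599).

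Further along the pathway, few genes were measured and 1 passed. Aldh1a7 and Aldh1a3 were the 2 tested genes of 6 listed for the step from retinaldehyde to retinoic acid. In either direction 0 passed, and 1 was lower at an unadjusted p under 0.05, beside 2222 of all 17155 tested genes. DESeq2 also called 1 lower, beside 652 over all genes. The activity of their products on retinaldehyde was not measured. Aldh1a3 had a log2 fold change of -0.34 (SE 0.41), and Aldh8a1 had at most 1 count in a library. Of 6 genes that bind or break down retinoic acid, Cyp2s1 and Fabp5 were tested, with log2 fold changes of -0.38 (SE 0.19, adjusted p = 0.272) and 0.32 (SE 0.17, adjusted p = 0.281), and Cyp26c1 had 2 to 5 counts.

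The nuclear receptors Rxra, Rxrb and Rara, which act as partners in retinoic acid signalling, were all detected and lay close to 0, with log2 fold changes of 0.03 (SE 0.09), 0.07 (0.11) and -0.07 (0.10). Of 8 receptor genes 6 were tested and 0 passed in either direction (1 higher at an unadjusted p under 0.05, 0 by DESeq2). Of 13 genes known to respond to retinoic acid 5 were tested, 0 were lower and 1 was higher (0 lower and 2 higher at an unadjusted p under 0.05, 0 lower and 1 higher by DESeq2). Of all 17155 tested genes 2.29% were lower and 1.28% higher, and 2222 and 2028 at an unadjusted p under 0.05. The higher gene was Cdx1, a homeobox factor of intestinal identity. The members Dhrs3, which was lower, and Isx, which was not tested, also respond to retinoic acid but were not in this list.

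Cdx1 was at 97.4 and 89.7 normalized CPM in control organoids against 134 and 125 in mimic organoids. The groups did not overlap, and the gene rose by 0.47 (SE 0.10, adjusted p = 0.0477). That call was lost under 8 of 17 alternatives, with an adjusted p of up to 0.295. Among them were the fits without mimic replicate 3 and without mimic replicate 4. The log2 fold change of Cdx1 stayed between 0.42 and 0.52 with any 1 library left out. Nrip1, a nuclear receptor corepressor, had a log2 fold change of 0.24 (SE 0.10, adjusted p = 0.180) and Tgm2, a transglutaminase, one of -0.22 (SE 0.12, adjusted p = 0.310). Cyp26a1 and Rarb, both direct targets of retinoic acid receptors in many cells and named here after their values were seen, had 0 to 2 counts and 0 to 1 counts in the libraries.

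**Figure D4:**
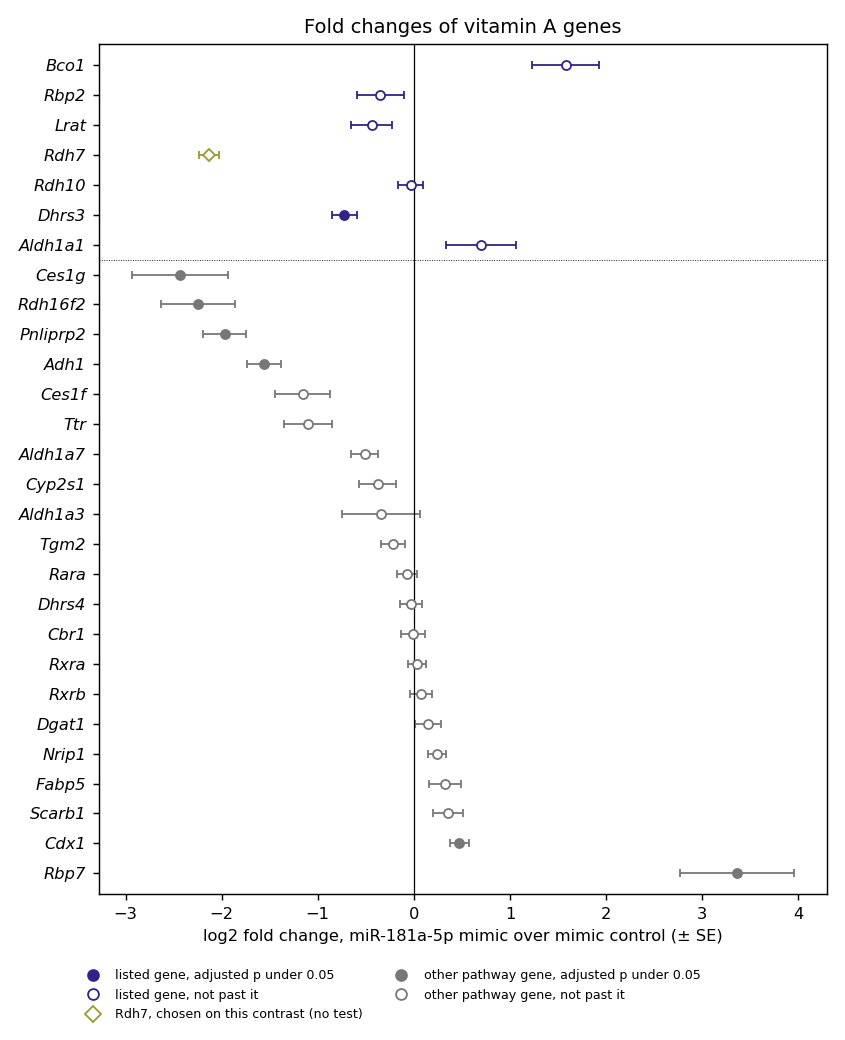
Log2 fold changes, mimic over control, with their SE for the 7 vitamin A genes with enough counts (above the dotted line) and for other genes of the pathway (below it) that passed an adjusted p of 0.05 or were among the 3 most abundant of their list. Filled circles passed, open circles did not, and the diamond is Rdh7, given without a test. Dhrs3, Ces1g, Rdh16f2, Pnliprp2 and Adh1 are filled to the left of 0, and Cdx1 and Rbp7 to the right.

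Promoter windows of the members (RefSeq, GRCm38.p6, 250 bases before to 50 bases after each annotated start) were searched on both strands for the half-sites AGGTCA and AGTTCA, which retinoic acid receptors and other nuclear receptors can bind, and for the repeat AGGTCANAGGTCA, which holds the first of them 2 times. Over all 32851 mouse windows of this length 16.3% held AGGTCA, 14.0% held AGTTCA, 27.7% held either and 13 windows (0.0396%) held the repeat. For the members 11 windows of 7 genes were at hand, and 3 of these held a half-site. They are printed 5' to 3' on the strand of the gene, with the half-sites in capitals, because 1 of them is the repeat and belongs to Bco1.
Bco1, chr8:117095615-117095914, plus strand: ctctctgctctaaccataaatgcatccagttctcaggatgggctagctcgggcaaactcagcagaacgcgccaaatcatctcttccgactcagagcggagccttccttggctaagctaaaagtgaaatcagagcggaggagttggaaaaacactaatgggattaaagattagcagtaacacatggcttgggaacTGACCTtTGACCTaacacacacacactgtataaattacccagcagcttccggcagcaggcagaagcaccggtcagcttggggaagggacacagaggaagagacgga
Rbp2, chr9:98490287-98490586, plus strand: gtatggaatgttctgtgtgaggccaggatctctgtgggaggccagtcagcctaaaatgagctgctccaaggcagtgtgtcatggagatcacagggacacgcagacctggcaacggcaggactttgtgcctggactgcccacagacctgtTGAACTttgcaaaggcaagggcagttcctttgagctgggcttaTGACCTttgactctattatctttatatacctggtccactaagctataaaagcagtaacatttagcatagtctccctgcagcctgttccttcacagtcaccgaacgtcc
Rdh7, chr10:127889198-127889497, minus strand: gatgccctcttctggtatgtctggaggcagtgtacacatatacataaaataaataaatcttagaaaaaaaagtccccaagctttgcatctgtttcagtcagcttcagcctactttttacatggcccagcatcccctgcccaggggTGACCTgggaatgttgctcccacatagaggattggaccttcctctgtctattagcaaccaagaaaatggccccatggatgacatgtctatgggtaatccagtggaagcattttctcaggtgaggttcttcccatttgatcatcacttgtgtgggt
The Bco1 window held the repeat on the reverse strand, 56 and 49 bases before the start. The Rbp2 window held AGTTCA and AGGTCA, both on the reverse strand, 101 and 58 bases before the start. The upper window of Rdh7 held 1 AGGTCA on the reverse strand, 105 bases before its start, and a second annotated window of the gene held none. None of these letters was found in the windows of Dhrs3, Lrat, Aldh1a1 and Isx. Only the repeat with 1 base between its half-sites was searched, and not repeats with other spacings. The repeat was not assigned to retinoic acid receptors or to any other nuclear receptor. The promoter search was not part of the analysis plan. Binding was not measured, and a match is a description of the sequence alone.

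Markers of the cell types that organoids can hold were read beside these genes. Over all marker lists 5 of 74 tested genes (6.76%) were lower and 3 (4.05%) higher at an adjusted p under 0.05. The shares over all tested genes were 2.29% and 1.28%. Unadjusted p-values under 0.05 were reached by 13 lower and 12 higher markers, beside 2222 and 2028 of all 17155 tested genes. The marker lists were also drawn up with earlier results of these data known, so their shares are only a description. The enterocyte markers were expressed throughout, with a sum of 10674 and 12298 normalized CPM in control organoids against 11209 and 9783 in mimic organoids. Of 15 tested, 1 was lower, the aminopeptidase gene Anpep (-2.14 on the log2 scale, adjusted p = 0.0081), and 0 were higher. At an unadjusted p under 0.05 there were 3 lower and 0 higher, and by DESeq2 1 lower and 0 higher. Their median log2 fold change was -0.21. Of 10 stem cell markers, Lgr5 was lower (-1.38, adjusted p = 0.0369), a call lost under 5 of 17 alternatives with an adjusted p of up to 0.322. The other stem cell markers did not pass, and the median of the list was 0.15. Both mimic libraries lay above both controls in 4 markers (40%) and below them in 3 (30%), beside 28.9% and 29.5% of all genes. Smoc2, one of the 4 and named after its values were seen, had a log2 fold change of 0.48 (adjusted p = 0.079). The list's sum was 2970 and 2263 in control organoids against 2652 and 2942 in mimic organoids.

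Markers of the position along the intestine moved in both directions. Of 6 proximal markers, the transcription factor genes Pdx1 (-3.22, adjusted p = 0.0050) and Onecut2 (-1.18, adjusted p = 0.0047) were lower. The sum of the list was 773 and 1174 normalized CPM in control organoids against 471 and 529 in mimic organoids. The sum moved with Cybrd1, a duodenal iron reductase gene of the list, at 283 and 607 in control organoids against 55.3 and 153 in mimic organoids, which did not pass (-2.09, adjusted p = 0.063). Lct, the lactase gene, lay above both controls in both mimic libraries (0.69, adjusted p = 0.187), and both genes are named after their values were seen. Of 5 tested distal markers, Osr2 (1.32, adjusted p = 0.0121) and Cubn (3.44, adjusted p = 0.0081) were higher, whereas the ileal bile acid carrier Fabp6 had at most 1 count in a library. Cubn was 2.79 on the log2 scale without mimic replicate 4. The distal sum was 757 and 770 in control organoids against 734 and 818 in mimic organoids. Most of it came from Muc13, named after its values were seen, at 712 and 726 against 651 and 705. At an unadjusted p under 0.05, 0 distal markers were lower and 4 higher, and by DESeq2 0 and 3. For the proximal markers these counts were 3 lower and 1 higher, and 2 and 0. Over all genes 2222 were lower and 2028 higher of 17155 tested at an unadjusted p, and 652 and 646 by DESeq2. The part of these position markers in the values of Rdh7, Dhrs3, Bco1 and Adh1 was not tested.

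In the other lists the goblet cell marker Spink4 was lower (-0.59, adjusted p = 0.0353) and the replication gene Mcm2 was higher (0.51, adjusted p = 0.0369). Of the 8 proliferation markers 0 were lower and 3 higher at an unadjusted p under 0.05, and likewise by DESeq2. For this and the next lists the values over all genes were 2222 lower and 2028 higher of 17155 tested without adjustment. DESeq2 gave 652 and 646 over all genes. Both mimic libraries lay above both controls in 5 of the 8 (62.5%) and below them in 0, beside 28.9% and 29.5% of all genes. Of the 7 goblet cell markers 2 were lower and 1 was higher at an unadjusted p under 0.05, and likewise by DESeq2. The higher one, Agr2, named after its values were seen, had a log2 fold change of 0.55 (adjusted p = 0.095). Spink4 lost its call under 5 of 17 alternatives, the fit without mimic replicate 3 among them. Mcm2 lost its call under 7 of 17, among them the fits without mimic replicate 3, mimic replicate 4 or control replicate 1. Over all alternatives the adjusted p of Spink4 ran from 0.000528 to 0.330 and that of Mcm2 from 0.00115 to 0.295. Paneth cell, enteroendocrine and tuft cell markers gave 0 calls, with 3, 0 and 0 lower and 0, 1 and 0 higher at an unadjusted p under 0.05, and with 1 lower Paneth cell marker by DESeq2. Cells from outside the epithelium left little RNA: Col1a2, Col3a1, Dcn and Lum of the mesenchymal markers had 0 counts in every library, and the sums were 4.16 to 7.25 normalized CPM for the mesenchymal and 1.85 to 4.72 for the leukocyte markers.

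The profile of Rdh7 over the 4 libraries was most like those of Cfhr2, Igf2bp3, B3gnt7, Mirt1 and Rps4l, among 13756 genes with a mean of at least 1 normalized CPM. The Euclidean distance of their centred log2 levels from those of Rdh7 was between 0.164 for Cfhr2 and 0.286 for Rps4l, and their log2 fold changes ran from -2.32 for B3gnt7 to -1.99 for Mirt1. The measure compares 4 values per gene and is given as a description.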

How the data were processed

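Mouse SI organoids were profiled by RNA-seq, with 2 mimic control and 2 miR-181a-5p mimic libraries grouped by the treatment in their labels. According to the submitters' processing notes and the methods, Trimmomatic was used for trimming of the single reads (100 cycles) and RSEM for quantification against GRCm38. The authors deposited estimated counts per gene from RSEM, without normalization. The TPM that the authors deposited are scaled per transcript length and by library. The labels name poly(A) selection and the supplemental methods ribosomal RNA depletion. In each of the tables another 3 columns matched no sample and were not used.

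Libraries held 31104884 to 38111731 expected counts. The spread between 2 libraries per group limits the precision, and for low genes such as Rdh16f2 and Rbp7 the few counts do as well. With 2 libraries per group an exact permutation test cannot go below p = 0.333. After rounding, the counts entered the quasi-likelihood test of edgeR (version 4.0.16, R 4.3.3, with filterByExpr, TMM, estimateDisp, glmQLFit and glmQLFTest, two-sided), and p-values were adjusted by Benjamini-Hochberg over the 17155 tested genes. The SE is the size of the log2 fold change divided by the square root of F. Symbols and coordinates came from GENCODE release 21 for mouse (55227 of 55487 genes matched), and sequences from RefSeq (GRCm38.p6). The steps were tested on simulated counts.

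The 9 members and all gene lists were chosen with earlier results of these data known. Named are all members, pathway genes past the threshold, the 3 most abundant of each pathway list, the 5 nearest profiles and the neighbours within 100 kb of Rdh7, and of the marker lists the genes past the threshold and those at 0, apart from 2 genes that are not reported here. Alternatives were RLE, upper-quartile and no factors, the exact, likelihood-ratio, legacy and robust tests of edgeR, DESeq2 1.42.0, 2 other filters, limma 3.58.1 on log2(TPM + 1) and log2(TPM + 0.1), and leaving out each library. Those TPM fits required at least 1 TPM in 2 libraries or had no filter, and they understate changes of low genes. Sums over related genes were added after the data were seen. Plots were drawn with matplotlib 3.10.9.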

Additional observations from a re-analysis of the deposited data

How the results depend on the processing

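Rdh7 had been chosen for its consistent fall between these libraries. Its log2 fold change lay between -2.18 and -1.98 under every alternative and between -2.15 and -2.10 with any 1 library left out. Dhrs3 kept its direction under all 17 alternatives and lost its call under 5, Bco1 kept its direction under all 17 and passed under 6, and the cause was not tested. With 1 library left out the lone library of its group was assumed to vary like the other group, and Rdh10 then ran from -0.17 to 0.10, Rbp2 from -0.67 to 0.056 and Aldh1a1 from -0.13 to 1.23. Over all genes 392 were lower and 220 higher, against 313 and 272 without normalization factors, 652 and 646 by DESeq2, 1022 and 756 by the exact test, 1072 and 792 by the likelihood-ratio test, 125 and 67 without a filter, and 43 and 32, 16 and 11, and 0 and 2 in the limma fits on log2(TPM + 1), on log2(TPM + 0.1) and on log2(TPM + 1) without a filter. With 1 library left out they ran from 214 to 1213 and from 159 to 1152. No scaling of the counts moved the median of all genes by more than 0.1.

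The members other than Rdh7, 1 lower and 0 higher, became 0 lower without a filter and in each of the 3 TPM fits, and 1 higher in the exact and likelihood-ratio tests. With 1 library left out the counts were 0 to 2 lower and 1 to 2 higher. The other vitamin A genes, 4 lower and 2 higher, became 11 and 4 in the exact test, 11 and 4 in the likelihood-ratio test, 2 and 0 without a filter, and 1 and 0, 0 and 0, and 0 and 0 in the same TPM fits. The higher count was 1 with upper-quartile factors, 1 in the legacy test, 1 with at least 10 counts in every library and 4 by DESeq2, and leaving out 1 library gave 4 to 8 lower and 1 to 7 higher. The cell type markers, 5 lower and 3 higher, became 9 and 8 in the exact test, 9 and 9 in the likelihood-ratio test, 3 lower without a filter, and 2 and 1, 1 and 0, and 0 and 0 in the TPM fits. Without normalization factors 5 were higher, by DESeq2 8 were higher, and leaving out 1 library gave 7 to 16 lower and 4 to 8 higher. Adh1 and Pnliprp2 lost their calls in TPM fits alone. No paired analysis was possible because the groups share no replicate numbers.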
